A study of Mus musculus with 18 samples.

Results

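Complement is a cascade of plasma and tissue proteins that marks particles and cells for removal or lysis, and 9 of its genes, of 27997 in the deposited table, are described here: C3, C4b, C1ra, C2 and Cfb (activating components), C3ar1 (the receptor of the C3a fragment) and Cd55, Cd59a and Cd46 (membrane inhibitors). They were chosen by name, and all 9 had a row. RNA was sequenced from adherent neural stem cell (NSC) cultures and from astrocytes that BMP4 (20 ng/ml) had induced in the same cultures. The tdTomato and EYFP lines came from spinal cord cells traced for DNGR-1 (Clec9a), a dendritic cell receptor, in adult mice whose Clec9a locus drives Cre and whose Rosa locus holds the silenced reporter. Their labelled genotypes are DNGR-1 +/- Tom+/- and DNGR-1 +/- EYFP+/-, and the hippocampal line is labelled DNGR-1+/+. The hippocampal line came from mice with Glast-Cre, Huwe1 fl and Rosa LSL EYFP alleles, and the mice were of a C57BL/6J background. NSCs were kept in EGF, bFGF, heparin and laminin and collected on day 4, and astrocytes were collected on day 6. Each of the 6 groups had 3 libraries, taken from successive passages (10 to 12) of its line, so p-values measure how passages of 1 line vary, not animals. In the fate test over all lines and the origin tests within a fate, the spread also takes in differences between lines. Medium, growth factors, time and fate change together between NSCs and astrocytes and cannot be told apart, and neither can origin, genotype and line between the traced and hippocampal groups.

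In the classical pathway the protease C1r activates C1s, which cuts C4 and C2 into a C3 convertase. In the alternative pathway factor B (Cfb) binds deposited C3b and forms a second convertase. Both cut C3, whose larger fragment coats the target and whose smaller fragment, C3a, signals through C3ar1. CD55 takes convertases apart, CD46 is a cofactor for cutting C3b and C4b, and CD59 blocks the membrane attack complex. In brain, astrocytes are known as a source of C3 and C4, and microglia of C1q and of the C3a receptor.

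The members lie on chromosomes 1, 2, 6 and 17 of GRCm38. C3 spans chr17:57203970-57228136 on the minus strand. C4b (chr17:34728380-34743882), Cfb (chr17:34856374-34862518) and C2 (chr17:34862604-34898265) lie within the class III region of the major histocompatibility complex, all on the minus strand, with 85 bases between Cfb and C2. C1ra (chr6:124512405-124523443, plus strand) lies 6901 bases from C1s1, and C3ar1 is at chr6:122847138-122856161 on the minus strand. Cd55 (chr1:130439027-130462744) and Cd46 (chr1:195036826-195092249) are on the minus strand, and Cd59a (chr2:104095801-104115354) on the plus strand, 4613 bases from its copy Cd59b.

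Several members share sequence with another gene, and how reads were split between such genes was the authors' RSEM estimate. Of all stretches of 75 bases in the annotated transcripts, the share also found in another gene was 69.9% for Cfb and 39.2% for C2, which share exons with Gm20547, an annotated read-through of this pair. It was 42.4% for C1ra (mainly its copy C1rb), 22.7% for C4b (its copy C4a), 13.1% for Cd46 (the opposite-strand gene A330023F24Rik), 6.13% for Cd55 (mainly its copy Cd55b), 1.66% for Cd59a (Cd59b) and 0 for C3 and C3ar1. Gm20547 was between -1.03 and 0.37 in every library and C1rb between -1.14 and 0.23, far under the members. The values of Cfb, C2, C1ra and C4b are therefore less certain than those of C3 and Cd59a.

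RefSeq promoters were at hand for 6 of the 9 members (C3, C1ra, C3ar1, Cd55, Cd59a and Cd46). The 250 bases before the start site (GRCm38.p6, 5′ to 3′) are printed for C3 and Cd59a, which rose strongly, for Cd46, which rose least, and for C3ar1, which stayed under the level tested. Capitals mark matches, on either strand, to C/EBP (TTNNGNAA), GAS (TTCNNNGAA), a shortened interferon element (GAAANNGAA), a BMP-Smad GC element (GGCGCC) and NF-kB.
C3, chr17:57228137-57228386, minus strand: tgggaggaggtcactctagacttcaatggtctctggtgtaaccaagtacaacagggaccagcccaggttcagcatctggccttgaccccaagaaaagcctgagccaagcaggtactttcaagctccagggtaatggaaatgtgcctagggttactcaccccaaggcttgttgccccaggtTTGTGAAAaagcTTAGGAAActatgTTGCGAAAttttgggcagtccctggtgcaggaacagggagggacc
Cd59a, chr2:104095551-104095800, plus strand: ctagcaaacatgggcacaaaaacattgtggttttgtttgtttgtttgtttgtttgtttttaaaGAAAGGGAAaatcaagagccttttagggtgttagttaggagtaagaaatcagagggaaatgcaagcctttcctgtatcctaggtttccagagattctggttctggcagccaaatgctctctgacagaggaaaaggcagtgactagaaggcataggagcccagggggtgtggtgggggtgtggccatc
Cd46, chr1:195092249-195092498, minus strand: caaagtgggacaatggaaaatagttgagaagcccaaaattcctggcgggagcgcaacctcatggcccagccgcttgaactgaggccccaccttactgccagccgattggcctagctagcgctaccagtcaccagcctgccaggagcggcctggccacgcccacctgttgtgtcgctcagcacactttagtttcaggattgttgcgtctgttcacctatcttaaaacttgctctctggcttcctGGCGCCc
C3ar1, chr6:122856158-122856407, minus strand: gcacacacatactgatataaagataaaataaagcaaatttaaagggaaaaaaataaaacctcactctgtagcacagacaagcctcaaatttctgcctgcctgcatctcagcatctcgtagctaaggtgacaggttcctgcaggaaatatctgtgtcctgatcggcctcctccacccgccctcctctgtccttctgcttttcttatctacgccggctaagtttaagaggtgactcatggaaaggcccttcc

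The C3 window held 3 C/EBP matches that did not overlap, from 70 to 38 bases before the start. Over the 32851 promoter windows listed, 36.8% held a C/EBP match and 2.61% held at least 3. C1ra, whose RefSeq start lies inside the annotated gene, held 2 C/EBP matches, Cd59a 1 interferon element match (in 7.13% of windows) and Cd46 1 BMP-Smad match (in 9.59%). No match was found in the windows of Cd55 and C3ar1, and no member window held a GAS (7.02%) or NF-kB (7.25%) match. A match is a description of letters and not a measured binding site.

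Values below are the deposited log2 values, which look like a regularized log: a difference of 1 is a doubling, and values of weak genes would then be shrunk to the gene's average, so their changes may be understated. A gene was tested where at least 3 of the libraries compared reached 3.32 (10 on the linear scale), and called at an adjusted p under 0.05 with limma, adjusted over all genes tested. The depth behind a value is unknown, since no count can be read back from it.

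Over all lines, 6 of the 8 members tested were higher in astrocytes than in NSCs, 1 was lower and 1 was not called. As background, 81.9% of the 15448 genes tested were called (42.1% higher and 39.8% lower), so a call by itself sets no member apart. The median change over the 8 members was 2.42 and over all genes 0.02, and 6 members rose by at least 1, which 14.6% of all genes did. These figures describe genes that were chosen with earlier results known. The groups did not overlap for 6 of 8 members, against 46.1% of all genes. C3ar1 was not tested. Ependymal markers were higher in astrocytes as well, 3 of the 3 with a value (median 1.51), with a summed linear level of 699 to 1451 in NSCs and 2062 to 5128 in astrocytes, and their part in the members' change was not tested.

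**Figure D1:**
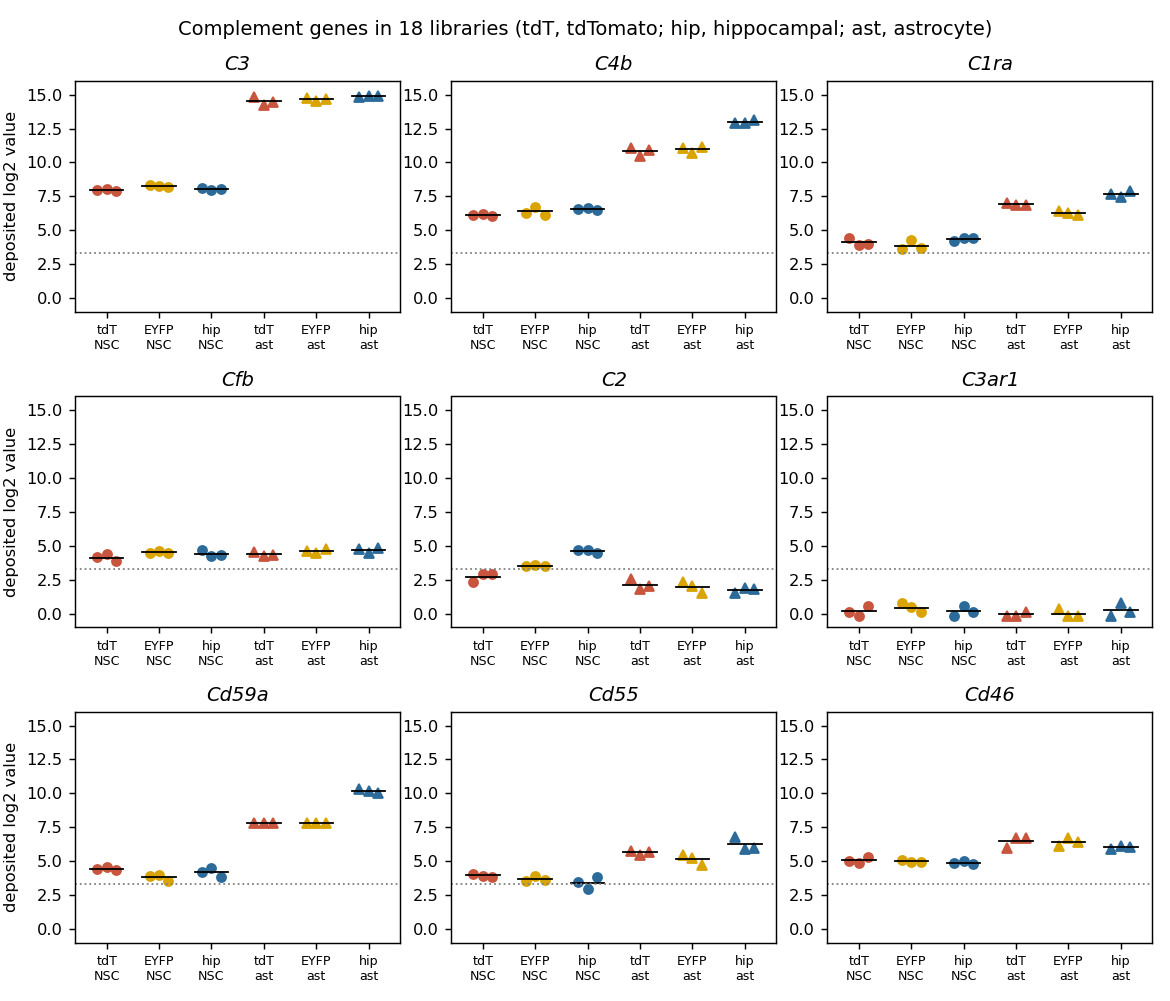
Deposited log2 values of the 9 genes in each library (points, circles for NSCs and triangles for astrocytes) and group means (black lines), with the level of 3.32 needed for testing as a dotted line. C3, C4b, C1ra, Cd59a, Cd55 and Cd46 lie higher in all astrocyte libraries than in any NSC library, Cfb stays between 3.87 and 4.81, and C2 is highest in hippocampal NSCs.

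C3, the convergence point of the pathways, was 7.99, 8.08 and 7.90 in tdTomato NSCs, 8.32, 8.24 and 8.16 in EYFP NSCs and 8.15, 8.004 and 8.02 in hippocampal NSCs. In astrocytes it was 14.83, 14.24 and 14.44 in the tdTomato line, 14.77, 14.55 and 14.66 in the EYFP line and 14.83, 14.91 and 14.90 in the hippocampal line. All 9 astrocyte libraries were thus far above all 9 NSC libraries, and the lines differed little within a fate. The change was 6.59 (SE 0.07, adjusted p = 5.8e-21, limma), a 96.1-fold difference.

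C4b, which encodes mouse C4, was 6.16, 6.23 and 6.09 in tdTomato NSCs, 6.28, 6.73 and 6.16 in EYFP NSCs and 6.54, 6.64 and 6.51 in hippocampal NSCs. In astrocytes it was 11.07, 10.48 and 10.90 (tdTomato), 11.08, 10.67 and 11.14 (EYFP) and 12.93, 12.90 and 13.15 (hippocampal). Hippocampal astrocytes stood above the astrocytes of both traced lines, which overlapped each other. The change over all lines was 5.22 (SE 0.22, adjusted p = 3.4e-13, limma), or 37.3-fold. Its copy C4a changed by 0.65 (SE 0.12, adjusted p = 1e-04).

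C1ra, which encodes the protease C1r, was 4.46, 3.89 and 4.02 in tdTomato NSCs, 3.63, 4.29 and 3.67 in EYFP NSCs and 4.24, 4.43 and 4.44 in hippocampal NSCs. It was 7.03, 6.86 and 6.84 in tdTomato astrocytes, 6.45, 6.28 and 6.16 in EYFP astrocytes and 7.71, 7.49 and 7.89 in hippocampal astrocytes. The NSC groups overlapped, whereas the 3 astrocyte groups were separate, in the order hippocampal, tdTomato and EYFP. The change was 2.85 (SE 0.14, adjusted p = 1.3e-12), or 7.20-fold.

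Cfb, the protease of the alternative pathway, was 4.14, 4.40 and 3.87 in tdTomato NSCs, 4.44, 4.63 and 4.46 in EYFP NSCs and 4.67, 4.27 and 4.32 in hippocampal NSCs. In astrocytes it was 4.56, 4.27 and 4.34 (tdTomato), 4.62, 4.48 and 4.77 (EYFP) and 4.77, 4.44 and 4.81 (hippocampal). Each group overlapped with its neighbour in the order of means. The difference was 0.21 (95% interval 0.00 to 0.41, adjusted p = 0.058) and not called, so a rise of more than 0.41 lay outside the interval. Its sign turned to -0.08 with quantile normalization, and it was called with median centring (0.25, adjusted p = 0.022) and without a variance trend (adjusted p = 0.028). It was also called (adjusted p = 0.032 to 0.044) when replicate 2 of the tdTomato NSCs, EYFP NSCs, EYFP astrocytes or hippocampal astrocytes, or replicate 1 of the hippocampal NSCs, was left out.

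C2, the classical pathway partner of C4, was 2.36, 2.95 and 2.90 in tdTomato NSCs, 3.49, 3.56 and 3.49 in EYFP NSCs and 4.66, 4.71 and 4.50 in hippocampal NSCs. It was 2.59, 1.79 and 2.06 in tdTomato astrocytes, 2.30, 2.03 and 1.49 in EYFP astrocytes and 1.52, 1.86 and 1.79 in hippocampal astrocytes. Levels in NSCs were separate between lines, in the order hippocampal, EYFP and tdTomato, and the astrocyte groups overlapped at a lower level. C2 was the member that was lower in astrocytes, by 1.69 on the log2 scale (SE 0.27, adjusted p = 1.4e-05). Only 6 libraries, the EYFP and hippocampal NSCs, reached the level for testing, so C2 entered the test through the groups where it was high. The opposite-strand gene Zbtb12, with which C2 shares 2.22% of its stretches, was 8.72 to 8.89 in NSCs and 7.65 to 7.82 in astrocytes; its part in the values of C2 was not tested.

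C3ar1 was between -0.16 and 0.80, and 7 of 18 libraries were within 0.03 of its lowest value. No library came near the level for testing, and the group means, from -0.05 in tdTomato astrocytes to 0.45 in EYFP NSCs, overlapped throughout. Whether this receptor changed could not be tested at these levels.

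Cd59a, the blocker of the membrane attack complex, was 4.41, 4.59 and 4.37 in tdTomato NSCs, 3.91, 3.99 and 3.57 in EYFP NSCs and 4.19, 4.51 and 3.85 in hippocampal NSCs. It was 7.83, 7.82 and 7.83 in tdTomato astrocytes, 7.86, 7.83 and 7.79 in EYFP astrocytes and 10.32, 10.20 and 10.01 in hippocampal astrocytes. The traced astrocytes were almost the same, and the hippocampal astrocytes stood well above them. Cd59a had the largest change of the 3 inhibitors, 4.45 (SE 0.28, adjusted p = 8.3e-11), or 21.9-fold.

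Cd55, the convertase inhibitor, was 4.09, 3.95 and 3.86 in tdTomato NSCs, 3.57, 3.91 and 3.62 in EYFP NSCs and 3.48, 2.94 and 3.81 in hippocampal NSCs. In astrocytes it was 5.75, 5.50 and 5.69 (tdTomato), 5.44, 5.27 and 4.71 (EYFP) and 6.78, 5.94 and 6.00 (hippocampal). Hippocampal libraries were lowest on average among NSCs and highest among astrocytes. The change was 1.98 (SE 0.20, adjusted p = 6e-08), or 3.95-fold.

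Cd46, the cofactor inhibitor, was 5.02, 4.86 and 5.32 in tdTomato NSCs, 5.11, 4.96 and 4.91 in EYFP NSCs and 4.87, 5.02 and 4.78 in hippocampal NSCs. It was 6.00, 6.69 and 6.70 in tdTomato astrocytes, 6.11, 6.73 and 6.44 in EYFP astrocytes and 5.91, 6.15 and 6.08 in hippocampal astrocytes. All astrocyte libraries were above all NSC libraries, and lines overlapped within each fate. The change was 1.33 (SE 0.11, adjusted p = 3.9e-09), or 2.51-fold. A330023F24Rik, the gene on the other strand, was 2.68 to 3.82 in NSCs and 4.10 to 5.26 in astrocytes; its part in the values of Cd46 was not tested.

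Within each line, 6 members were higher. In the tdTomato line 6 of 7 members tested were higher, where 79.3% of all genes were called and 39.9% were higher. In the EYFP line 6 of 8 were higher and C2 was lower, where 74.9% of all genes were called, 37.5% higher and 37.4% lower. In the hippocampal line 6 of 8 were higher and C2 was lower, where 77.3% were called, 39.2% higher and 38.2% lower. C3 rose by 6.52 in the tdTomato line, 6.42 in the EYFP line and 6.82 in the hippocampal line. C4b rose by 4.66, 4.57 and 6.43 in the same order, Cd59a by 3.37, 4.00 and 5.99, and Cd55 by 1.68, 1.44 and 2.83. C1ra rose by 2.79, 2.43 and 3.32, and Cd46 by 1.39, 1.43 and 1.15. C2 fell by 1.57 in the EYFP line and by 2.90 in the hippocampal line, and was not tested in the tdTomato line. In both lines C2 entered the test through the 3 NSC libraries alone, where it was high. Cfb was not called in any line, with differences of 0.25, 0.11 and 0.25 whose sign turned with quantile normalization.

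**Figure D2:**
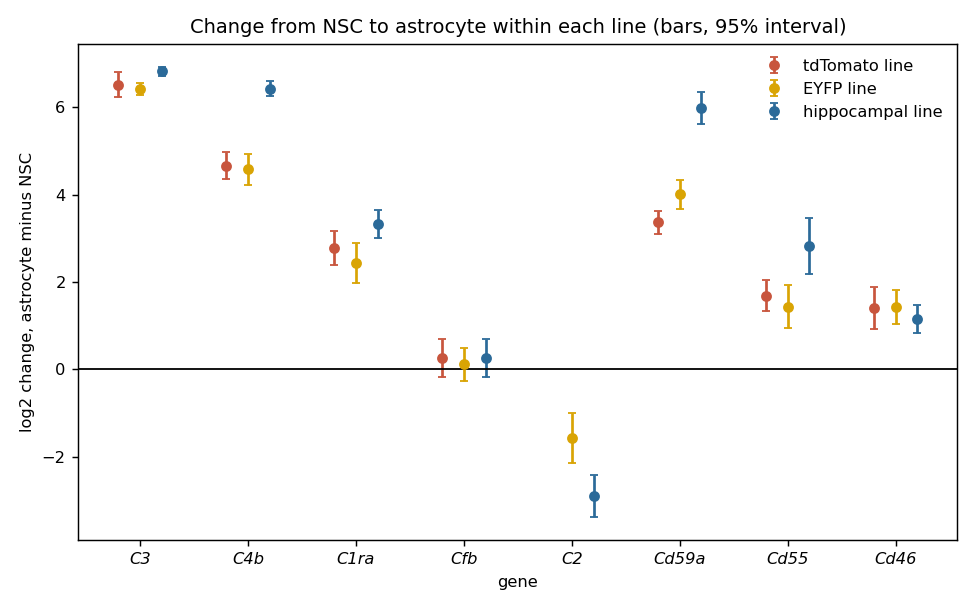
Log2 change from NSC to astrocyte of 8 genes (y axis) within the tdTomato, EYFP and hippocampal lines, with 95% intervals from limma on 3 against 3 libraries. C3 lies between 6.42 and 6.82 in all lines, while C4b, Cd59a and Cd55 are set apart by larger changes in the hippocampal line.

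To set C3 against the other members, its log2 difference from each was formed within every library and compared between the fates. The rise of C3 exceeded the change of each of the 7 other tested members, by 1.37 for C4b, 2.13 for Cd59a, 3.74 for C1ra, 4.60 for Cd55, 5.26 for Cd46, 6.38 for Cfb and 8.27 for C2. Each p was 0.00025 before and after adjustment over the 7 members (two-sided exact permutation test, fate labels permuted within lines), the smallest that the 8000 relabellings can give. C3 was set against the others with its rise in these data already known, so these p-values are no independent support. C2 reached the level for testing in the EYFP and hippocampal NSCs alone, where it was high, so its value is a description. In the hippocampal line C3 rose by only 0.40 more than C4b and 0.83 more than Cd59a. In the tdTomato line these differences were 1.86 and 3.15, and in the EYFP line 1.84 and 2.41. The changes of weak genes such as C2, Cfb and Cd55 may be understated on this scale.

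Levels of different genes can be set side by side only per length, here as log2 of the linear value per kilobase of exon. On this scale C3 ranked highest of the 9 members and C4b next to it in all 6 groups. C3 was 5.63 ± 0.09 (SD, n = 3) in tdTomato NSCs and 12.14 ± 0.30 in tdTomato astrocytes, and 5.69 ± 0.08 and 12.52 ± 0.04 in hippocampal NSCs and astrocytes. C4b reached 10.48 ± 0.14 in hippocampal astrocytes and 8.31 ± 0.31 in tdTomato astrocytes. The inhibitor Cd59a was 9.32 ± 0.16 in hippocampal astrocytes, next after C4b, and 6.97 ± 0.01 and 6.97 ± 0.03 in tdTomato and EYFP astrocytes. Cfb (2.89 ± 0.15 in tdTomato astrocytes) and C2 (0.19 ± 0.41) ranked near the bottom of the members in astrocytes, and C3ar1 was last in every group.

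**Figure D3:**
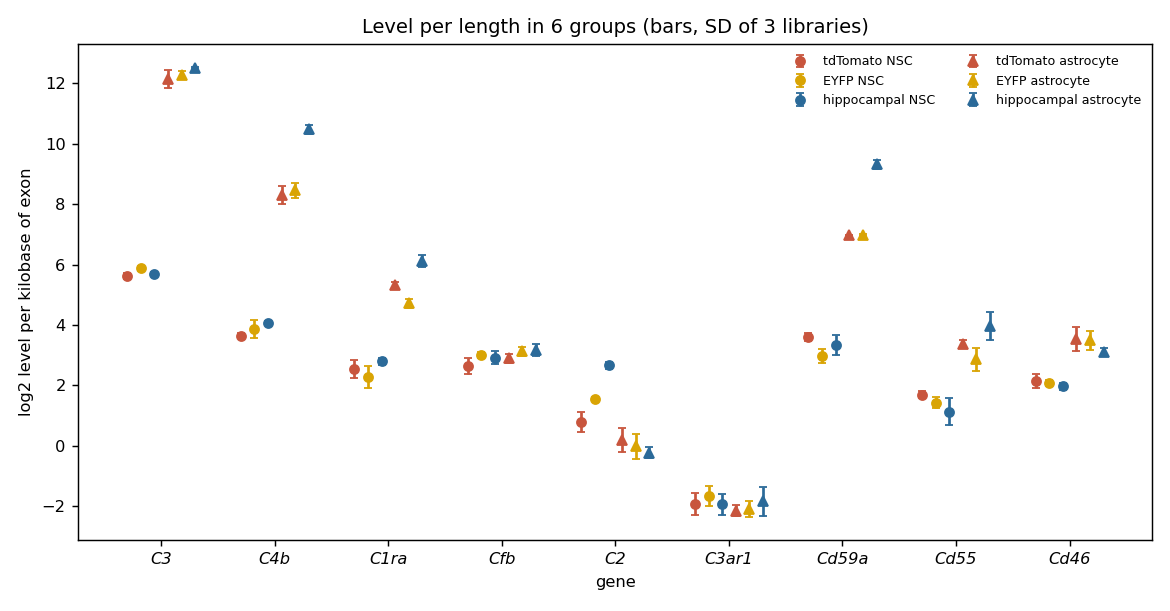
Level per length (log2 of the linear value per kilobase of exon, y axis) of the 9 genes in the 6 groups, as means with the SD of 3 libraries. C3 is highest in each group, at 12.14 to 12.52 in astrocytes, and C3ar1 lowest.

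Origin was compared within each fate. Among NSCs, 1 of 8 members differed between the traced and hippocampal lines, where 19.4% of all genes were called and 8.81% were lower. This was C2, lower in traced NSCs by 1.50 on the log2 scale (SE 0.27, adjusted p = 0.0037). C2 entered this test, too, through the EYFP and hippocampal NSCs, where it was high. C3 differed by 0.06 (95% interval -0.15 to 0.27), C4b by -0.29 (-0.60 to 0.02), Cd59a by -0.05 (-0.59 to 0.50) and Cd55 by 0.43 (-0.04 to 0.89), and none of these passed. Without EYFP NSC replicate 2, C4b was also called, at -0.38 (adjusted p = 0.016).

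Among astrocytes, 4 of 7 members were lower in the traced lines and none was higher, where 52% of all genes were called and 27.9% were lower. Cd59a was lower by 2.35 (SE 0.07, adjusted p = 2.2e-09), C4b by 2.10 (SE 0.14, adjusted p = 9.3e-07) and C1ra by 1.09 (SE 0.20, adjusted p = 0.00094) on the log2 scale. In these 3 genes no traced library reached the lowest hippocampal library, and the groups of 48.3% of all genes did not overlap. Cd55 was lower by 0.84 (SE 0.25, adjusted p = 0.017), and by 0.57 (adjusted p = 0.097) without hippocampal astrocyte replicate 1, its highest library. C3 differed by -0.30 (95% interval -0.55 to -0.04, adjusted p = 0.05, not called), Cfb by -0.17 (-0.52 to 0.19) and Cd46 by 0.40 (0.00 to 0.80, adjusted p = 0.088). C3 and Cd46 were called without replicate 1 of the tdTomato astrocytes (adjusted p = 0.022 and 0.028) or of the EYFP astrocytes (adjusted p = 0.034 and 0.048), and in the model with 6 groups (adjusted p = 0.007 and 0.043). C3 was also called with a filter of 100 (adjusted p = 0.047), and Cd46 with quantile normalization (0.52, adjusted p = 0.027).

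**Figure D4:**
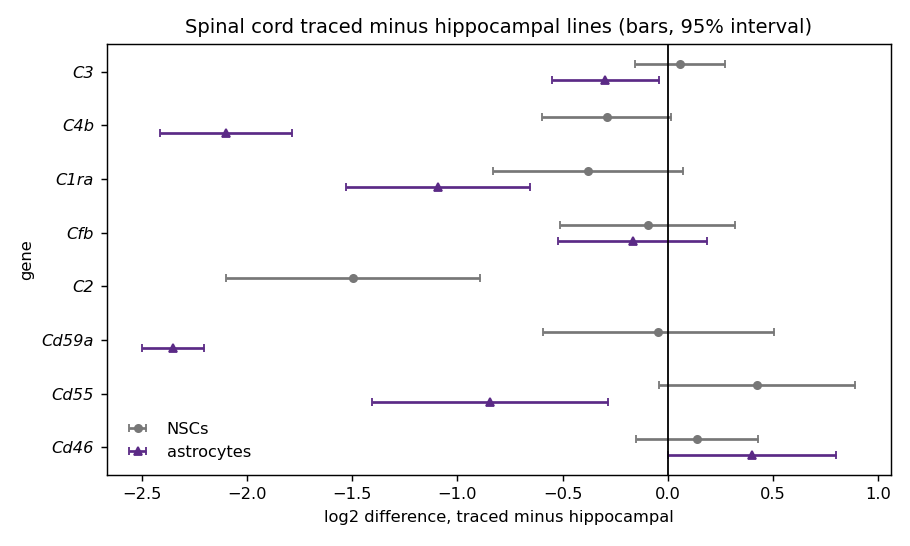
Log2 difference between the traced and the hippocampal lines (x axis) for 8 genes, in NSCs (circles) and astrocytes (triangles), with 95% intervals from limma on 6 against 3 libraries. C4b, C1ra, Cd59a, Cd55 and C3 lie below 0 in astrocytes with intervals that leave out 0, though C3 was not called. In NSCs only C2 lies below 0 with such an interval.

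The difference between origins in the change itself was tested as an interaction (18 libraries), where 46.2% of all genes were called (25.9% lower, a smaller rise or larger fall in the traced lines, and 20.3% higher). It was called for 6 of 8 members. The rise in traced cultures was smaller by 2.31 for Cd59a (SE 0.18, adjusted p = 1.5e-08), 1.81 for C4b (SE 0.19, adjusted p = 4.3e-07), 1.27 for Cd55 (SE 0.30, adjusted p = 0.0022) and 0.71 for C1ra (SE 0.22, adjusted p = 0.014). For C3 the difference was -0.36 (SE 0.12, adjusted p = 0.026), and it was not called with median centring (adjusted p = 0.069), with quantile normalization (adjusted p = 0.16), or when replicate 2 or 3 of the hippocampal NSCs (adjusted p = 0.063 and 0.058) or replicate 2 or 3 of the hippocampal astrocytes (adjusted p = 0.056 and 0.053) was left out. For C2 it was 1.82 (SE 0.30, adjusted p = 8.3e-05), a smaller fall in the traced lines, with the same limit on how C2 entered the test. Cd46 (0.26, 95% interval -0.23 to 0.75) and Cfb (-0.07, -0.52 to 0.37) were not called.

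The tdTomato and EYFP lines were also compared with each other. Among NSCs, 33.2% of all genes were called, and C2 (-0.78, adjusted p = 0.032), C3 (-0.25, adjusted p = 0.034) and Cd59a (0.63, adjusted p = 0.029) were called in tdTomato minus EYFP. C2 entered this test through the 3 EYFP NSC libraries alone (3.49 to 3.56), where it was high, and no tdTomato NSC library (2.36 to 2.95) reached the level for testing. With no filter on low values none of the 3 was called (adjusted p = 0.071, 0.076 and 0.068), leaving out any of the 6 libraries in turn left 0 or 1 of them (C2 could not be tested without any 1 EYFP library), and C3 was not called in the model with 6 groups (adjusted p = 0.066). Among astrocytes, where 11.2% of all genes were called and 5.6% were higher, only C1ra was called, at 0.61 (SE 0.12, adjusted p = 0.011). Cd59a differed by 0.00 there (95% interval -0.16 to 0.16).

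The rest of the pathway was described through a list of 46 further complement genes, of which 33 had a value and 19 could be tested over all lines. Of these 14 were higher in astrocytes, 3 were lower and 2 were not called, with a median of 0.65. Hc, Itgb2, Vtn, Serping1 and Cd59b, all among the 14, entered the test through astrocyte libraries alone, where they were high. Their direction was thus favoured by the filter, which limits the count, the median and their p-values. Among all genes 81.9% were called, 42.1% higher and 39.8% lower. The genes of C1q (C1qa, C1qb and C1qc), the mannose-binding lectins Mbl1 and Mbl2, and the terminal components C6 and C8a were among the 13 listed genes not analysed here. Among initiating proteases, C1s1, the substrate of C1r, rose by 3.42 (SE 0.17, adjusted p = 2.8e-12), and Masp1 of the lectin pathway was lower by 0.89 (adjusted p = 2.5e-09). Of the 4 other cascade components tested 3 were higher, with Hc, which encodes C5, at 2.51 (SE 0.15, adjusted p = 5.1e-11). Itgb2, the beta chain of the integrin complement receptors, rose by 2.22 (SE 0.19, adjusted p = 5.2e-09), while Itgam, which encodes an alpha chain of these receptors, was between -2.14 and -2.01 in every library.

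Of 9 other inhibitors tested, 7 were higher and 2 were lower, where 42.1% of all genes were higher and 39.8% lower. Clusterin (Clu), a fluid-phase inhibitor of the terminal pathway, rose by 5.29 (SE 0.32, adjusted p = 4.4e-11), from 8.56 ± 0.23 (SD, n = 9) in NSCs to 13.86 ± 1.47 in astrocytes. Vitronectin (Vtn) rose by 3.02 (SE 0.66, adjusted p = 0.00044), the C1 inhibitor Serping1 by 3.00 (SE 0.42, adjusted p = 3.3e-06), Csmd1 by 2.65 (SE 0.13, adjusted p = 1.6e-12) and Cd59b by 2.08 (SE 0.47, adjusted p = 0.00053). Hc, Itgb2, Vtn, Serping1 and Cd59b reached the level for testing in astrocyte libraries only, and so entered the test through the groups where they were high. For Cd59b these were the 3 hippocampal astrocyte libraries (5.15 to 5.54), on which its change over all lines rests, and every other library was at 2.24 or less. The change of Vtn over all lines likewise rests mostly on the hippocampal line, where its mean was 2.03 in NSCs and 8.61 in astrocytes. It was 1.45 and 3.52 in the EYFP line, and 2.10 and 2.51 in the tdTomato line, where the fates overlapped, and Vtn was not tested within either traced line. Serping1 was 1.79 and 7.07 in the hippocampal line, 1.64 and 3.49 in the EYFP line and 1.67 and 3.53 in the tdTomato line. Susd4 and Csmd2 were lower, by 0.87 and 0.83 on the log2 scale. Susd4 was 7.98 to 8.09 in NSCs and 6.10 to 6.42 in astrocytes of the tdTomato line. It was 6.39 to 6.59 and 6.00 to 6.31 in the EYFP line, and 7.13 to 7.39 and 6.52 to 6.84 in the hippocampal line. Clu, Vtn, Serping1 and Cd59b differed widely between the astrocytes of different lines.

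**Figure D5:**
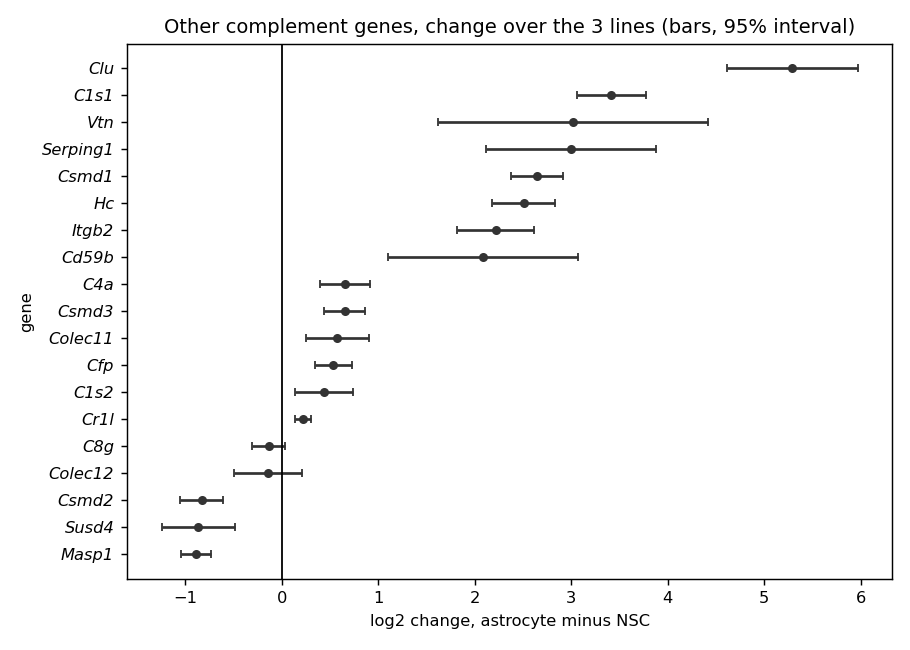
Log2 change from NSC to astrocyte over the 3 lines (x axis) of the 19 other complement genes tested, with 95% intervals. Clu, C1s1, Vtn, Serping1, Csmd1, Hc, Itgb2 and Cd59b rose by more than 2, and the intervals of C8g and Colec12 hold 0.

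In astrocytes, 7 of these 19 genes were lower and 2 higher in the traced lines, where 27.9% of all genes were lower and 52% were called in either direction. Vtn was 3.02 ± 0.87 (SD, n = 6) in traced and 8.61 ± 0.48 (n = 3) in hippocampal astrocytes. Serping1 was 3.51 ± 0.34 and 7.07 ± 0.38, Cd59b 1.37 ± 0.61 and 5.29 ± 0.22, and Clu 12.91 ± 0.50 and 15.74 ± 0.03 in the same order. Cd59b entered this test through the 3 hippocampal libraries alone. In each of these 4 genes the highest traced library was below the lowest hippocampal library, as it was for Cd59a and C4b. C1s1 was lower in the traced lines by 1.35 (SE 0.13, adjusted p = 1.1e-05), whereas Masp1 (1.33, adjusted p = 1.3e-05) and Csmd3 (1.17, adjusted p = 0.00037) were higher in them. In the interaction test 7 of the 19 were lower and none was higher, where 25.9% of all genes were lower and 20.3% higher. Vtn, Serping1, Cd59b and Hc, all among the 7, entered it through astrocyte libraries alone, where they were high.

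The labels were checked against cell type markers. The summed linear level of 8 astrocyte markers was 34230 to 76849 in NSCs and 154994 to 259131 in astrocytes, and that of 5 NSC markers 49478 to 54941 in NSCs and 11767 to 27316 in astrocytes. Over all lines 4 of the 5 NSC markers were lower in astrocytes, against 39.8% of all genes. The other, Sox2, was higher (11.22 to 12.12 in NSCs, 12.47 to 13.07 in astrocytes). Nes overlapped between the fates in the hippocampal line (13.76 to 13.99 and 13.43 to 13.80). Of the 8 astrocyte markers 7 were higher, against 42.1% of all genes, and 1 was not called. Aldh1l1 overlapped in the hippocampal line (10.06 to 10.53 and 10.01 to 10.68). Of 11 microglia and macrophage markers 8 had a value, and Ptprc, Aif1, Fcgr1 and Adgre1 were under 0 in all 18 libraries. The summed linear level of the 8 was 44.3 to 118 in NSCs and 65.4 to 104 in astrocytes. It was higher in astrocytes in the EYFP line (44.9 to 48.4, then 74.7 to 87.3) and the hippocampal line (44.3 to 48.5, then 65.4 to 74.7). In the tdTomato line it was 100 to 118 and 89.9 to 104, with overlap. The part of these markers in the members' change was not tested. Between origins in astrocytes the genes of this list moved both ways: Tmem119 was 3.17 to 5.74 in traced and 1.76 to 1.83 in hippocampal libraries, and P2ry12 1.82 to 2.70 and 3.24 to 3.57. Their sum was 74.7 to 104 in traced and 65.4 to 74.7 in hippocampal astrocytes. Astrocyte markers summed to 154994 to 211070 in traced and 230986 to 259131 in hippocampal astrocytes, a sum that rests mostly on the highest genes. Of the 8 astrocyte markers 4 were lower in traced than in hippocampal astrocytes (Gfap by 0.99, Aldh1l1 by 3.30, Slc1a3 by 0.56 and Gja1 by 1.81 on the log2 scale), Slc1a2 was higher by 0.93 and 3 were not called. All 3 ependymal markers with a value (Foxj1, Ccdc153 and Rsph1) were lower in traced astrocytes (summed level 2062 to 2618 against 4563 to 5128), as C4b, C1ra, Cd59a and Cd55 were, and the part of these markers in the difference between origins was not tested. Of the 5 NSC markers 3 were lower in traced astrocytes (Nes by 2.67, Sox2 by 0.30 and Top2a by 0.18 on the log2 scale) and 2 were not called. Their sum was 11767 to 14401 in traced and 23635 to 27316 in hippocampal astrocytes, and Nes was 10.74 to 11.19 against 13.43 to 13.80. The 4 endothelial markers with a value summed to 35.4 to 49.0 in traced and 10.3 to 18.7 in hippocampal astrocytes, and 5 fibroblast markers to 36.1 to 77.8 and 21.0 to 24.8. The part of these 3 lists was not tested either. In these bulk cultures fewer cells of a type and less RNA per cell cannot be told apart.

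Across the 18 libraries the genes whose values were most like those of a member, by Pearson's r among genes tested, were Hspb8 (0.998), Mdga1 and Timp2 for C3, Stpg1 (0.998), Usp53 and C1s1 for C4b, and Met (0.997), Rubcn and Ifit3b for Cd59a. For C1ra they were 5730409E04Rik (0.990), C1s1 and Cacna1e, for Cd55 Bcl2l1 (0.973), Msn and BC023105, for Cd46 Prkag2os1 (0.981), Mkln1 and Vamp1, and for C2 Slitrk2 (0.952), Chn2 and Zfp69. Cfb had no close match, the nearest being Pbld2 at 0.821. Among the members, C4b and Cd59a were most alike (0.988), and C4b and C1ra next (0.981). The 18 libraries share fates and lines, so these correlations are a description and carry no test.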

How the data were processed

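The table held log2 values for 27997 genes in 18 libraries, which the authors made by aligning reads with STAR (version 2.5.2), estimating counts per gene with RSEM (version 1.3.0 in the submitters' processing notes) on GRCm38 and normalizing with DESeq2 (version 1.18.1). The deposited log2 values look like a regularized log, a name which the sources used here do not give, and 29.4% of them are below 0. The labels name a stranded poly(A) kit and the methods another, and the strand setting of the counting is not given in the sources used here. Columns were matched to samples by label, and 0 columns were left out. Ensembl identifiers were paired with symbols for 27887 genes.

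The test was limma's, run in R 4.3.3 (limma 3.58.1) with the variance trend, on the values as deposited and with no pseudocount. Genes with at least 3.32 (log2 of 10) in at least 3 of the libraries compared entered, and p-values were adjusted by Benjamini-Hochberg over all of them with a threshold of 0.05. The fates were compared over all 18 libraries with line as a covariate and within each line, and origins within each fate. The code was tested on simulated data. C3 was set against each member with an exact permutation test. Annotation was GENCODE M21, and promoters came from RefSeq (GRCm38.p6). Named were the 9 members, listed complement genes that passed the test, with values mainly for changes of at least 1, copies and neighbours of members, and the 3 genes most alike by Pearson's r. A complement gene and a marker gene of the lists are not reported here. The members and lists were chosen with earlier results of these data known. Alternatives were pseudocounts of 1 and 10, no filter and a filter of 100, median centring, quantile normalization, no variance trend, a model with 6 groups, a replicate block and each library left out. Plots and annotation used Python 3.11.15 with pandas 2.3.3 and matplotlib 3.10.9.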

Additional observations from a re-analysis of the deposited data

Results flagged for a closer look

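The change from NSC to astrocyte differed between the traced and hippocampal cultures by a test of the difference itself (limma interaction over 18 libraries) for 6 of 8 members and 7 of 19 other complement genes tested, where 46.2% of all genes tested were called. As the traced change minus the hippocampal change on the log2 scale, it was -2.31 for Cd59a, -1.81 for C4b, -1.27 for Cd55, -0.71 for C1ra, -0.36 for C3 and 1.82 for C2, which entered the test through the EYFP and hippocampal NSCs alone, where it was high. For C3 the difference was not called with median centring (adjusted p = 0.069) or quantile normalization (adjusted p = 0.16). Nor was it called without replicate 2 or 3 of the hippocampal NSCs or astrocytes (adjusted p = 0.053 to 0.063). Among the 5 of the 7 other complement genes with a difference of at least 1 it was -5.34 for Vtn (adjusted p = 3.1e-08), -3.75 for Cd59b (adjusted p = 7.8e-07), -3.43 for Serping1 (adjusted p = 1.9e-07), -2.74 for Clu (adjusted p = 3.4e-11) and -1.21 for C1s1 (adjusted p = 0.00013). Origin, genotype and line cannot be told apart in this design, and 1 hippocampal line stands for its origin. Cd59b, Serping1, Vtn and Hc, the last also among the 7, were under the level for testing in all NSC libraries. They entered the test through astrocyte libraries where they were high, for Cd59b the 3 hippocampal ones alone, so their p-values are no independent support for a difference.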

How the results depend on the processing

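Over all lines the count of members called was 7 and stayed at 7 to 8 when each library was left out. The ranges were 6 to 6 in the tdTomato line, 6 to 7 in the EYFP and hippocampal lines, 1 to 2 between origins in NSCs, 3 to 6 between origins in astrocytes, 0 to 1 between the traced lines in NSCs, 1 to 1 between them in astrocytes, 5 to 6 for the interaction and 7 to 7 for C3 against the others. With a filter of 100 the counts were 3 in the EYFP line and 4 in the hippocampal line (7 each as reported), since fewer members were tested, 0 between origins in NSCs (1 as reported) and 1 between the traced lines in NSCs (3 as reported), where no filter left 0. Over all genes, the calls between the traced lines were 2970 (NSCs) and 975 (astrocytes) without a filter, against 4748 and 1641, and those between origins in NSCs 4864 in the model with 6 groups, against 2822. With a library left out they ranged from 1657 to 2886 between origins in NSCs (1657 to 1718 without any 1 hippocampal NSC library), 2719 to 5194 between traced NSCs (2719 and 2786 without tdTomato replicate 2 or 3, 2802 without EYFP replicate 1) and 936 to 1591 between traced astrocytes (936 without tdTomato replicate 2, 1093 and 1009 without EYFP replicate 1 or 3). Median centring took the share of higher calls from 43.9% to 56.2% in the interaction.

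Cfb changed sign with quantile normalization: -0.083 over all lines, -0.035, -0.114 and -0.106 in the tdTomato, EYFP and hippocampal lines, and 0.032 in the interaction, where median centring gave 0.00070. Cd59a between traced astrocytes was 0.0030 with median centring. Leaving out 1 library turned the sign of uncalled values, over ranges of -0.212 to 0.117 (Cd59a) and -0.167 to 0.030 (Cfb) between origins in NSCs, -0.051 to 0.178 (Cd46) between traced NSCs, -0.296 to 0.023 (C4b), -0.017 to 0.014 (Cd59a) and -0.123 to 0.265 (Cd46) between traced astrocytes, and -0.196 to 0.0012 (Cfb) in the interaction. The cause was not tested.

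Replicate numbers were not taken to pair the samples, since not every pair of deviations correlated at over 0.1: deviations from group means correlated at -0.02 on average between the fates of a line (9 pairs, -0.08 to 0.03) and at 0.11 between lines of a fate (18 pairs, 9 of them over 0.1). With a replicate block the count over all lines was again 7 and that for C3 against the others 7, C3 (adjusted p = 0.044) and Cd46 (adjusted p = 0.019) were called between origins in astrocytes, and calls over all genes between the traced astrocytes rose from 1641 to 3049.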
